A study of Homo sapiens with 6 samples.

Results

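A set of 40 glycolysis and hypoxia response genes was followed through a set of human lung adenocarcinoma cell lines. They were chosen by gene symbol from a list written for this work, with no expression threshold but with earlier results of these data known. All 40 were among the 16000 genes listed for all 6 libraries, and all 40 were among the 13476 genes with enough counts to be tested. Total RNA was sequenced from 1 culture each of PC-9 and HCC827, EGFR-mutant lines that EGFR tyrosine kinase inhibitors normally kill, and of 4 lines with acquired resistance to them: PC-9GR, PC-9ER, HCC827GR (spelled HCC82GR in its label) and HCC827ER. The labels leave GR and ER unexplained and do not say whether a resistant line is 1 clone or whether inhibitor was present at harvest. All lines grew in serum-containing RPMI medium at 37°C with 5% CO2, with no oxygen level stated in the labels. The series asks which pathways accompany acquired resistance. No line has a second library, so every p-value here measures only the spread between lines.

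Glycolysis splits glucose into pyruvate in the cytosol. Lactate dehydrogenase reduces the pyruvate to lactate, which leaves through monocarboxylate transporters. Pyruvate dehydrogenase kinases inhibit pyruvate dehydrogenase, which oxidises the remainder in mitochondria. When oxygen is scarce, the prolyl hydroxylases EGLN1 and EGLN3 no longer mark HIF1A and EPAS1 (HIF-2 alpha) for degradation, and these factors, paired with ARNT, bind hypoxia response elements with the core RCGTG. HIF levels are therefore set largely by protein stability, which RNA does not measure. Many tumour cells run glycolysis fast even with oxygen, and in EGFR-mutant lung cancer the receptor is known to drive glucose uptake and hexokinase expression.

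Values are CPM, counts scaled to a common library size, after TMM scaling, which corrects for differences in library composition. Where 6 values follow each other, they run through PC-9 and its GR and ER lines, then through HCC827 and its GR and ER lines. A pair is 1 resistant line over its parent, given as a log2 ratio after adding a prior count of 2. A gene was counted as at least 2-fold apart when this ratio reached 1 in either direction and 1 of the libraries had at least 1 CPM. A single pair has no replicate and no test, and the 2 pairs of one parent share its library. Fitted log2 fold changes are given ± SE from edgeR's quasi-likelihood test, with p adjusted over all tested genes.

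Library totals ran from 14529332 to 17859787 counts, so the 3 counts that an observed 0 allows correspond to at most 0.211 CPM. PC-9ER, HCC827GR and HCC827ER had Spearman correlations across genes of 0.919 to 0.97 with their own parents. PC-9GR stood apart: its correlation was 0.825 with PC-9 and 0.848 to 0.868 with the HCC827 libraries. Its descent from PC-9 rests on its label and was not tested, which holds for every ratio of PC-9GR to PC-9 below, and counts over the pairs are also given without it. Ribosomal protein genes took 16.1% of the counts in HCC827ER and 5.88% to 8.53% elsewhere, and scaling by total counts alone moved the median gene of that pair by -0.342 on the log2 scale. Both ER lines come from a second table, so a difference between tables cannot be told apart from ER against the other lines. Of 9 lung adenocarcinoma and epithelial markers, 7 or 8 exceeded 3 counts in every library. The lung lineage factor NKX2-1 was at 0 in PC-9GR and HCC827ER and reached at most 14.5 CPM, in HCC827. Summed epithelial markers ranged from 5224 to 16260 CPM, summed mesenchymal markers from 240.1 to 1731 CPM, and summed leukocyte markers from 21.3 to 154 CPM with the T cell gene CD3E near 0. The epithelial and mesenchymal sums hide single markers. EPCAM was at 371, 1.9, 392, 440, 26.8 and 130 CPM, and VIM at 5.09, 1390, 163, 93.7, 860 and 878 CPM. Other markers of PC-9GR went the other way, with KRT8 at 3620 CPM against 2480 in PC-9 and FN1 at 248 against 536. Summed fibroblast markers ranged from 3.16 to 39.7 CPM. Endothelial markers in PC-9 summed to 213 CPM, in PC-9ER to 53.8 CPM, and to at most 0.856 CPM elsewhere, with KDR at no more than 0.0658 CPM in any library. The part of these marker differences in the results below was not tested.

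The set did not move as one block. In PC-9GR, 23 members were above and 17 below PC-9, with a median log2 ratio of 0.279. In PC-9ER, 21 were above and 19 below, with a median of 0.075. In HCC827GR, 16 were above and 22 below HCC827, with a median of -0.194, and in HCC827ER 30 were above and 8 below, with a median of 0.527. SLC2A3 and CA9 had at most 3 counts in all HCC827 libraries and were given no direction there. The median over all tested genes lay between 0 and 0.011 in every pair. The median of HCC827ER was the highest with TMM scaling, and with total-count scaling the whole pair moved down as given above. The members on either side of its median, EPAS1 and PGAM1, were then at 0.15 and 0.216. Those of PC-9GR, SLC2A3 and TPI1, were at 0.234 and 0.237, so the median of PC-9GR was then the highest. In bulk RNA a lower share of cells with a transcript and less transcript per cell cannot be told apart.

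**Figure D1:**
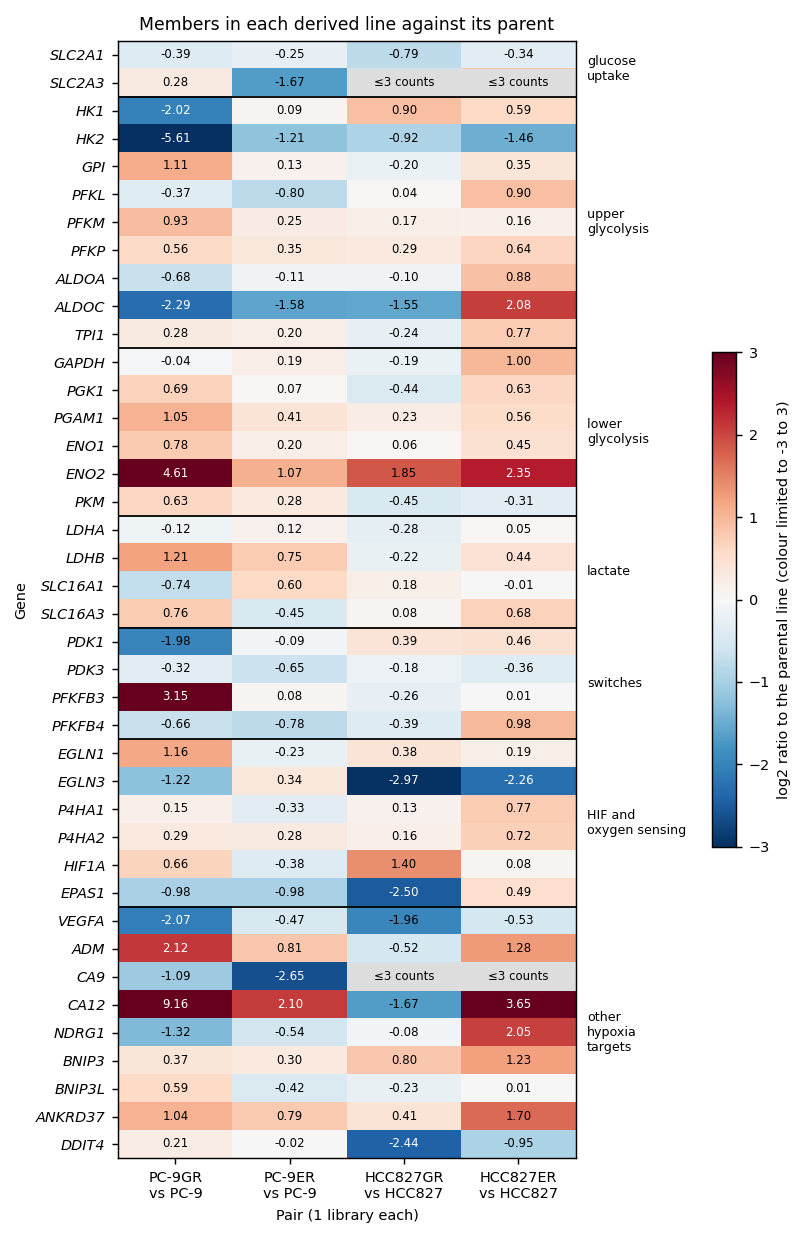
Heat map of the log2 ratio of each of the 40 members (rows, grouped by role) in the 4 resistant lines over their parents (columns, 1 library each); red is higher and blue lower, with colour limited at 3, and grey cells had at most 3 counts in both libraries. The ENO2 row is above 1 in all 4 columns and the HK2 row is below 0 in all 4.

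Members at least 2-fold apart from the parent were set beside the share among all tested genes. In PC-9GR, 8 members were at least 2-fold higher (all tested genes 19.2%) and 8 at least 2-fold lower (19.1%). In PC-9ER, 2 were higher (4.78%) and 4 lower (6.65%). In HCC827GR, 2 were higher (6.83%) and 5 lower (8.22%). In HCC827ER, 8 were higher (16.3%) and 2 lower (17.6%), and with total-count scaling these became 5 (10.5%) and 3 (26.0%). Most of these shares lie near the background, and the lower members of HCC827ER are fewer than it. In all, 8 members were higher than the parent in all 4 pairs, where 11.2% of all tested genes were: PFKM, PFKP, PGAM1, ENO1, ENO2, BNIP3, P4HA2 and ANKRD37. Another 4 were lower in all 4, where 11.1% of all tested genes were: SLC2A1, HK2, PDK3 and VEGFA. The second share is near the background and the first is above it, with no test of either. Because the list was written with earlier results of these data known, the distance from the background is no test. With total-count scaling PFKM left the first group. Without PC-9GR, 9 members were higher in the remaining 3 pairs (16.8%; HK1 is added) and 5 were lower (15.6%; DDIT4 is added). Without HCC827GR 15 were higher (18.8%), and without HCC827ER 9 were lower (15.4%). ENO2 alone exceeded the parent by at least 2-fold in each pair (0.393% of tested genes), and no member was at least 2-fold lower in all 4 (0.698%). In every pair 17 members stayed within 2-fold of the parent, as did 38.5% of all tested genes, a share near that of the members.

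**Figure D2:**
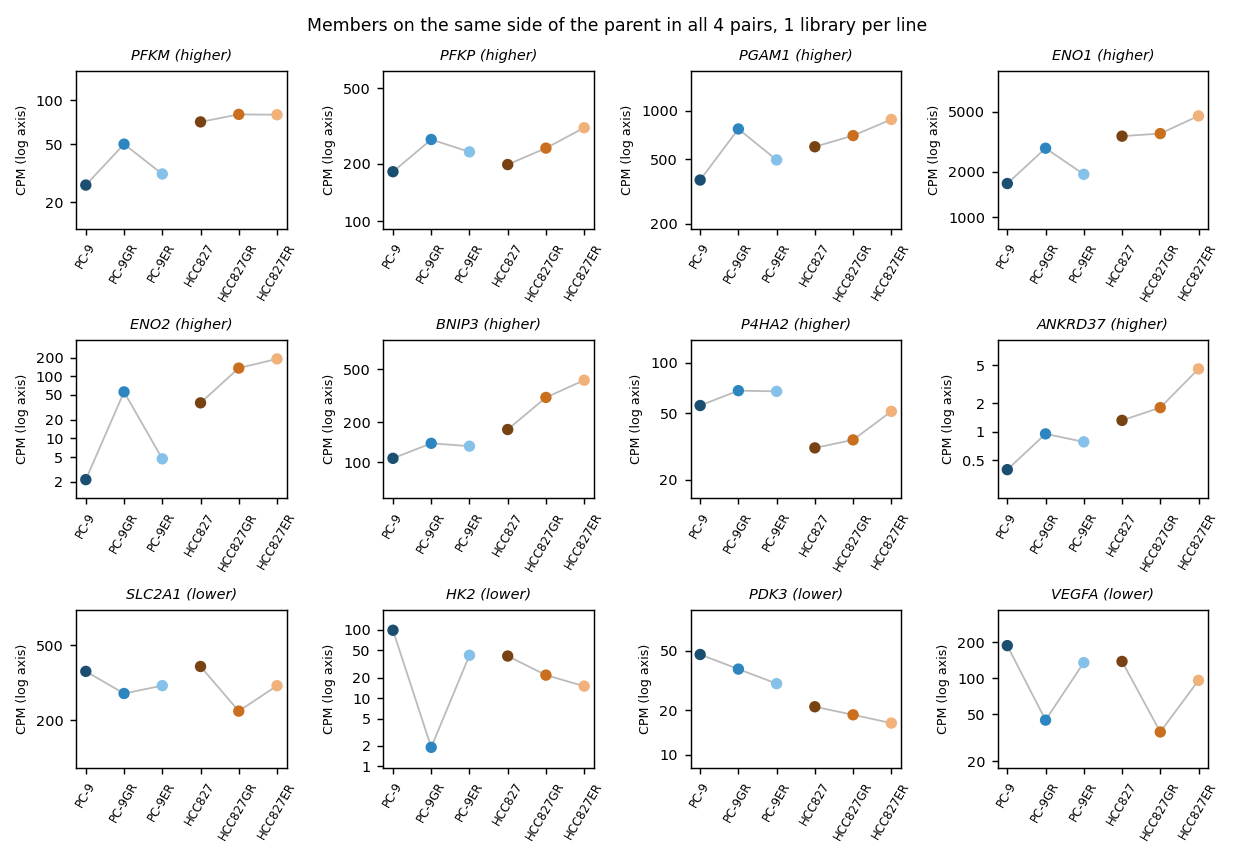
CPM on a log axis of the 12 members with one direction in all 4 pairs, 1 point per library, with the PC-9 family in blue, the HCC827 family in brown, and lines joining a family. Each resistant line lies on the stated side of its parent, and the widest log2 ratios are those of PC-9GR for HK2 (-5.61) and ENO2 (4.61).

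No member passed the test at an adjusted p of 0.05 for resistant against parental lines, blocked on the parent, and 0.0% of all tested genes did. The smallest adjusted p of a member was 0.998. At an unadjusted p under 0.05, 1 member was found (ENO2), where 2.55% of all tested genes were. No member passed among the derived lines of PC-9 (0.0% of all genes), among those of HCC827 (0.0%), or for the difference between the parents (0.0%). At an unadjusted p under 0.05 these gave 0 members (0.942% of all genes), 1 member (EGLN3; 1.46%) and 0 members (0.868%). DESeq2 and limma-voom also called 0 members in these 4 comparisons. The PC-9 comparison turned on PC-9ER: without it 4 members passed (HK2, ENO2, PFKFB3 and CA12; all genes 7.56%), and 1 member, CA12, passed for the difference between parents (3.83%). These shares are near the background.

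In total, 5 members were at least 2-fold apart from the parent in the same direction in 3 or more pairs: ENO2 and CA12 above, HK2, ALDOC and EGLN3 below. Their promoters are shown because these are the members with the most repeated distance from the parent and because HIF binds the core RCGTG. The windows run from 250 bases before to 50 after the RefSeq start (GRCh38.p14), 5′ to 3′ on the gene's strand, and capitals mark ACGTG or GCGTG on either strand (CACGT or CACGC on the printed one).

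ENO2, chr12:6914330-6914629, plus strand: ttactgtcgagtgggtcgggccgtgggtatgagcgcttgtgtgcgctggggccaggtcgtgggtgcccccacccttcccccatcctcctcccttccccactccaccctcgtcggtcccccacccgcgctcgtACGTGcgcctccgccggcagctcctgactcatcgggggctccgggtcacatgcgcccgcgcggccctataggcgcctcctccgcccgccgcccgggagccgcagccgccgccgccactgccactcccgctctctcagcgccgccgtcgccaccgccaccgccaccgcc
HK2, chr2:74833877-74834176, plus strand: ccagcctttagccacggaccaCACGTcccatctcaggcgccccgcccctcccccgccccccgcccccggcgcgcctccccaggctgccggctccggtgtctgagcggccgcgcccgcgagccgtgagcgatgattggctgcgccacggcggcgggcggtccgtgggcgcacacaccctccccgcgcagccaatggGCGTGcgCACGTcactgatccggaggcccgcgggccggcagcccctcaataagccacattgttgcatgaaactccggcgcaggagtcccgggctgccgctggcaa
ALDOC, chr17:28576846-28577145, minus strand: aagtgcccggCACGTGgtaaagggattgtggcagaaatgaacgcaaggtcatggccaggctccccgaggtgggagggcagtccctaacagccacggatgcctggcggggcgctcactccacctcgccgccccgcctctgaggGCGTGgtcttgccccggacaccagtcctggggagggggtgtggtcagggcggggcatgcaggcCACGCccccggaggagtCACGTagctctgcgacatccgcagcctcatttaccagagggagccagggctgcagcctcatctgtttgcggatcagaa
CA12, chr15:63381797-63382096, minus strand: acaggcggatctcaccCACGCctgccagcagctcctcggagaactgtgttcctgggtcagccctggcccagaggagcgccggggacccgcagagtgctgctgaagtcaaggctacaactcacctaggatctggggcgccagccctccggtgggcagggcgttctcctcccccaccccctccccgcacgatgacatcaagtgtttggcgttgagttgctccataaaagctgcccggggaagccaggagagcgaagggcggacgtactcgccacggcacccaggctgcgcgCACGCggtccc
EGLN3, chr14:33951025-33951324, minus strand: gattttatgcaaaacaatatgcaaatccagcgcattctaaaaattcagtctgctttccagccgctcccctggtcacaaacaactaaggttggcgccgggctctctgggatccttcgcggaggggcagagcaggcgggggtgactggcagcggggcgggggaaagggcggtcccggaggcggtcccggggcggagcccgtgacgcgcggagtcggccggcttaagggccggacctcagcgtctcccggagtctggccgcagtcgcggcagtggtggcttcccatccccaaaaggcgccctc

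ENO2 had 1 ACGTG, 118 bases before its start. HK2 had 2 ACGTG and 1 GCGTG, with 1 of each within 55 bases of the start. ALDOC had 3 ACGTG and 2 GCGTG; its CACGTG, which is its own reverse complement, counts as ACGTG on both strands. CA12 had 2 GCGTG, and the EGLN3 window held neither form. For each member outside chromosome 8, 1 window was used, that of its most upstream start. Of the 35 members with a window used, 16 (45.7%) held ACGTG and 18 (51.4%) held GCGTG. Among all 35116 windows of this length, which include several starts of the same gene, the shares were 21.4% and 36.5%. The palindrome CACGTG stood in 5 member windows (14.3%) and in 7.26% of all windows. Either form stood in 27 member windows (77.1%) and in 48.4% of all windows, and 4 of the 5 windows shown held it. The sets are thus unlike, and the members were listed partly as hypoxia targets, so the difference in shares is no test. These matches describe letters in the window and not binding.

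Glucose enters through SLC2A1 (GLUT1) and SLC2A3 (GLUT3). SLC2A1 was at 364, 278, 306, 387, 224 and 306 CPM. Each resistant line lay below its parent, HCC827GR by the most with a log2 ratio of -0.79, and all 4 ratios were within 2-fold (-0.43 ± 0.33, adjusted p = 0.998). SLC2A3 was at 28.8, 35.0, 9.01, 0.0658, 0 and 0.211 CPM. It was above the floor in the PC-9 family only, and the HCC827 libraries held 1, 0 and 3 counts. Of the SLC2A1 and SLC2A3 counts together, SLC2A3 made 7.34% in parental PC-9, 11.2% in its GR line and 2.86% in its ER line.

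Hexokinase traps glucose in the cell, and HK2 is the form most tied to tumour glycolysis. HK2 (chromosome 2, 74833981 to 74893359, GRCh38) was at 98.4, 1.90, 42.4, 41.3, 21.7 and 14.96 CPM. Every resistant line was below its parent, with log2 ratios of -5.61 for PC-9GR, -1.21 for PC-9ER, -0.92 for HCC827GR and -1.46 for HCC827ER. The fitted log2 fold change was -1.69 ± 1.02 (adjusted p = 0.998); it was -1.20 without PC-9GR and -3.22 without PC-9ER. HK1, the form of most tissues, was at 295, 72.5, 314, 137, 255 and 206 CPM. It was lower than the parent in PC-9GR (-2.02), close to it in PC-9ER (0.09) and higher in HCC827GR (0.90) and HCC827ER (0.59). Per kilobase of transcript HK2 had 17.8 CPM and HK1 76.5 in PC-9, and 2.71 and 53.5 in HCC827ER.

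The mix of the 2 hexokinases follows from counts within a library and does not depend on scaling. HK2 made 25.05% of their counts in PC-9 (95% exact binomial interval 24.03 to 26.09, counting error only), 2.55% in PC-9GR (1.77 to 3.55) and 11.9% in PC-9ER (11.1 to 12.7). In the other family it made 23.1% in HCC827 (21.6 to 24.8), 7.82% in HCC827GR (7.06 to 8.65) and 6.77% in HCC827ER (5.92 to 7.70). The parents lay within 2 points of each other, and all 4 resistant lines lay at less than 12%.

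**Figure D3:**
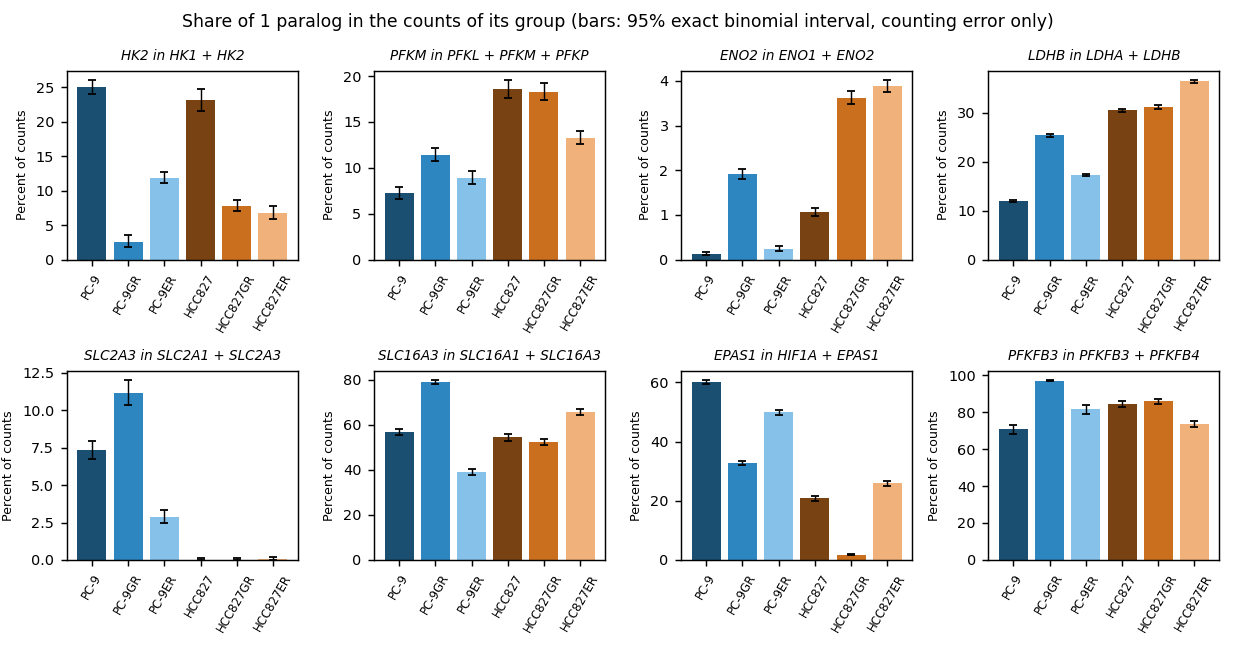
Share in percent of the counts of an isozyme group taken by the named member in each library, with exact 95% binomial intervals (counting error only). The HK2 share is below the parent and the LDHB and ENO2 shares are above the parent in all 4 resistant lines.

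GPI, which isomerises glucose 6-phosphate, was at 495, 1068, 541, 538, 469 and 687 CPM. Only PC-9GR exceeded its parent by 2-fold (log2 ratio 1.11). Phosphofructokinase, the committed step, has a liver, a muscle and a platelet form. PFKM, the muscle form, was at 26.2, 50.02, 31.2, 71.2, 80.1 and 79.7 CPM, and PFKP, the platelet form, at 182, 269, 231, 198, 242 and 310.2 CPM. Both were above the parent in every pair, PFKP by 0.29 to 0.64 on the log2 scale (fitted 0.47 ± 0.32) and PFKM by 0.16 to 0.93 (0.39 ± 0.36). With total-count scaling PFKM of HCC827ER was below its parent, at -0.18. PFKL, the liver form, was at 153, 119, 87.8, 113, 116 and 211 CPM and had no common direction.

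Aldolase splits fructose bisphosphate. ALDOC, the brain form and a hypoxia target, was at 83.9, 17.1, 27.9, 12.6, 4.202 and 53.4 CPM. It was lower than the parent in PC-9GR (-2.29), PC-9ER (-1.58) and HCC827GR (-1.55), and higher in HCC827ER (2.08), the one pair in which ALDOA was higher too. ALDOA was at 2651, 1657, 2462, 1744, 1622 and 3210.4 CPM, with log2 ratios of -0.68, -0.11, -0.10 and 0.88. TPI1, which interconverts the triose phosphates, had its highest value in HCC827ER at 4004 CPM against 2344 in HCC827, and its PC-9 libraries ranged from 1131 to 1374 CPM.

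In lower glycolysis ENO2 showed the widest ratios, all in one direction. Enolase makes phosphoenolpyruvate; ENO1 is the general form and ENO2 the neuronal form. ENO2 (chromosome 12, 6913745 to 6923698, GRCh38) was at 2.17, 56.1, 4.70, 37.3, 135 and 190.1 CPM. Every resistant line was above its parent, with log2 ratios of 4.61, 1.07, 1.85 and 2.35. In PC-9 it rested on 38 counts, so the fold of CPM was 25.8 for PC-9GR (counting interval 18.6 to 36.6) and 2.16 for PC-9ER (1.46 to 3.26). The families overlap in level: the resistant PC-9GR exceeded the parental HCC827. The fitted log2 fold change was 2.86 ± 1.10, with adjusted p = 0.998, and 1.70 without PC-9GR.

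ENO1 was at 1672, 2871, 1926, 3453, 3593 and 4706 CPM, above the parent in every pair but by at most 0.78 on the log2 scale (0.39 ± 0.41). ENO2 made 0.130% of enolase counts in PC-9 (0.0920 to 0.178), 1.92% in PC-9GR (1.80 to 2.04) and 0.244% in PC-9ER (0.194 to 0.302). It made 1.07% in HCC827 (0.984 to 1.16), 3.63% in HCC827GR (3.48 to 3.78) and 3.88% in HCC827ER (3.74 to 4.03). The intervals of parent and resistant line do not overlap in any pair, and ENO1 still gave over 96% of the counts in every library.

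GAPDH, often used as a reference transcript, was at 8577, 8354, 9816, 10441, 9161 and 20943 CPM. The first 5 libraries were close together and HCC827ER was 2-fold above its parent (log2 ratio 1.00, or 0.66 with total-count scaling). PGAM1, phosphoglycerate mutase, was at 373, 771, 496, 599, 701 and 882 CPM and above the parent in every pair (0.58 ± 0.39). PGK1 was at 826, 1337, 865, 1618, 1196 and 2502 CPM, and PKM, pyruvate kinase, at 3333, 5159.7, 4051, 4134, 3035 and 3336 CPM. Both were above PC-9 in its 2 resistant lines and below HCC827 in HCC827GR. GENCODE 29 names 62 pseudogenes of GAPDH, 13 of PGAM1, 5 of PKM and 4 each of ENO1 and TPI1, so reads of these genes may be shared with copies.

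The 15 glycolytic enzymes, from the hexokinases to the pyruvate kinase, can be summed per library. Their sum was 19899, 23176, 22197, 25483, 22623 and 41336 CPM. The sum in PC-9GR was 1.16 times and in PC-9ER 1.12 times that in PC-9, and in HCC827GR 0.888 times and in HCC827ER 1.62 times that in HCC827. GAPDH alone gave 36.0% to 50.7% of the sum. Its part was 50.7% in HCC827ER and 41.0% in HCC827. Without GAPDH these ratios were 1.31, 1.09, 0.895 and 1.36, so with TMM scaling HCC827ER stayed the highest and the gap to PC-9GR narrowed. The TMM factor was 0.8236 in HCC827ER and 1.046 in HCC827, against 1.003 to 1.036 in the PC-9 family. Without these factors the HCC827ER ratio without GAPDH falls below those of both PC-9 lines. This order therefore holds for TMM scaling and not for total-count scaling. As a share of all counts, with no scaling, the 15 enzymes took 2.06%, 2.33%, 2.30%, 2.66%, 2.45% and 3.40%. HCC827ER had the highest summed level with and without TMM scaling, though not the highest ratio to its parent without GAPDH. It is also the library with the highest ribosomal protein share, whose part in the sum was not tested.

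**Figure D4:**
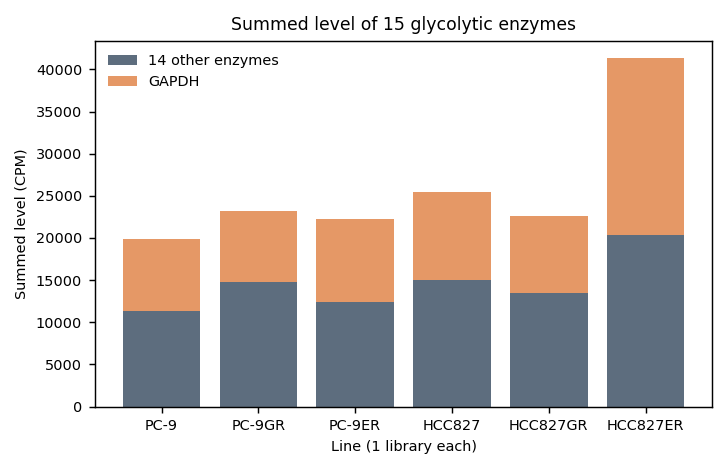
Summed CPM of the 15 glycolytic enzymes in each library, with the part given by GAPDH marked; bars start at 0. HCC827ER reaches 41336 CPM, and the other libraries lie between 19899 and 25483 CPM.

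Lactate dehydrogenase has an A form, usually linked to lactate production, and a B form, usually linked to lactate use. LDHA was at 3380.4, 3104, 3681, 2703, 2231 and 2803 CPM, within 0.28 of the parent on the log2 scale in every pair. LDHB was at 458, 1056, 771, 1185, 1014 and 1603 CPM. It was above the parent in PC-9GR (1.21), PC-9ER (0.75) and HCC827ER (0.44), and below it in HCC827GR (-0.22). LDHB made 11.9% of their counts in PC-9 (11.7 to 12.2), 25.4% in PC-9GR (25.1 to 25.7) and 17.3% in PC-9ER (17.1 to 17.6). It made 30.5% in HCC827 (30.1 to 30.9), 31.3% in HCC827GR (30.9 to 31.6) and 36.4% in HCC827ER (36.0 to 36.8). The share was above the parent in all 4 pairs, by the least in HCC827GR, where the intervals almost met, and every HCC827 library exceeded every PC-9 library.

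The monocarboxylate transporters SLC16A1 (MCT1) and SLC16A3 (MCT4, the export form of glycolytic cells) showed no common direction. SLC16A1 was at 126, 75.5, 191, 131, 149 and 130.1 CPM and SLC16A3 at 166, 282, 122, 156, 164 and 249.5 CPM. SLC16A3 made from 38.9% of their counts in PC-9ER to 78.9% in PC-9GR, with PC-9 between at 56.8%.

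Among the kinases that steer these fluxes, PDK1 and PDK3 inhibit pyruvate dehydrogenase. PDK3 was at 47.3, 37.7, 30.1, 21.1, 18.6 and 16.4 CPM, below the parent in every pair by 0.18 to 0.65 (-0.38 ± 0.34, adjusted p = 0.998). PDK1 was at 55.3, 13.97, 52.0, 38.9, 51.1 and 53.5 CPM, low in PC-9GR only. PFKFB3 and PFKFB4 make fructose 2,6-bisphosphate, the activator of phosphofructokinase. PFKFB3 was at 50.8, 451, 53.8, 121, 102 and 122 CPM, so PC-9GR was far above every other library (log2 ratio 3.15) and the other pairs lay within 0.26 of 0. PFKFB4 was at 21.1, 13.3, 12.2, 21.99, 16.7 and 43.5 CPM, above its parent in HCC827ER only.

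The HIF subunits themselves were uneven. HIF1A was at 402, 636, 310.1, 444, 1170.0 and 470.4 CPM, highest in HCC827GR, where it was at least 2-fold above the parent (1.40). EPAS1 was at 606, 308, 308, 116, 20.5 and 164 CPM. It was lower in PC-9GR (-0.98), PC-9ER (-0.98) and HCC827GR (-2.50) and higher in HCC827ER (0.49). Per kilobase HIF1A had 103 CPM and EPAS1 117 in PC-9, against 298 and 3.96 in HCC827GR. EPAS1 made 60.1% of the counts of both factors in PC-9 (59.4 to 60.8), 20.8% in HCC827 and 1.72% in HCC827GR (1.54 to 1.91).

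EGLN3, a prolyl hydroxylase that is itself a HIF target, was at 43.2, 18.4, 54.8, 17.3, 2.10 and 3.51 CPM. It was lower in PC-9GR (-1.22), HCC827GR (-2.97) and HCC827ER (-2.26) and slightly higher in PC-9ER (0.34). The fold of CPM was 0.121 in HCC827GR (counting interval 0.0823 to 0.174) and 0.203 in HCC827ER (0.147 to 0.275). In the HCC827 lines the fitted log2 fold change was -2.62 ± 0.88 (adjusted p = 1). EGLN1, the main oxygen sensor, was at 71.0, 159, 60.5, 56.4, 73.5 and 64.2 CPM, at least 2-fold above the parent in PC-9GR only. P4HA2, a collagen prolyl hydroxylase, was at 55.5, 68.0, 67.4, 31.0, 34.6 and 51.2 CPM, above the parent in every pair (0.38 ± 0.33), and P4HA1 ranged from 45.3 to 92.6 CPM with log2 ratios of -0.33 to 0.77.

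The remaining hypoxia targets went separate ways. VEGFA, the angiogenic growth factor, was at 187, 44.4, 135, 138, 35.3 and 95.7 CPM. It was below the parent in every pair, with log2 ratios of -2.07 and -1.96 in the GR lines and -0.47 and -0.53 in the ER lines (-1.07 ± 0.58, adjusted p = 0.998). BNIP3, a mitophagy receptor, was at 107, 138, 132, 176, 306 and 413 CPM and above the parent in every pair (0.67 ± 0.36); GENCODE 29 names 39 BNIP3 pseudogenes. Its relative BNIP3L ranged from 84.9 to 171 CPM and had no common direction. ANKRD37 was above the parent in every pair, but on 7 to 65 counts a library: the fold of CPM was 3.47 in HCC827ER (2.07 to 6.04), and the counting intervals of the other 3 included 1.

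The carbonic anhydrases CA9 and CA12 regulate pH at the cell surface. CA12 (chromosome 15, 63321378 to 63382161, GRCh38) had 49, 29931, 222, 7, 1 and 102 counts, or 2.80, 1673, 12.4, 0.461, 0.0618 and 7.16 CPM. The level was 596 times that of PC-9 in PC-9GR (counting interval 451 to 806), 4.43 times in PC-9ER (3.24 to 6.17), and 15.5 times that of HCC827 in HCC827ER (7.28 to 39.6). HCC827GR, on 1 count, was at 0.134 of HCC827, with an interval of 0.00298 to 1.04 that includes 1. The fit gave 5.33 ± 3.21 (adjusted p = 0.998). CA9 was at 13.6, 6.32, 2.07, 0.0658, 0 and 0 CPM, below PC-9 in both of its resistant lines, with 1, 0 and 0 counts in the HCC827 libraries.

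ADM, the vasodilator adrenomedullin, was at 15.9, 69.8, 27.9, 29.1, 20.3 and 70.6 CPM, at least 2-fold above the parent in PC-9GR (2.12) and HCC827ER (1.28). NDRG1 was at 357, 143, 246, 73.4, 69.4 and 304 CPM, lower in PC-9GR (-1.32) and higher in HCC827ER (2.05). DDIT4 (REDD1), an mTORC1 inhibitor, was at 222, 257, 219.6, 297, 54.9 and 154 CPM, lowest in HCC827GR (-2.44).

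Comparing the ER with the GR lines, no member passed the adjusted test (0.0% of all tested genes). At an unadjusted p under 0.05 there were 2 members, VEGFA and HIF1A, where 6.84% of all tested genes were. VEGFA was higher in the ER lines by 1.52 ± 0.37 on the log2 scale (adjusted p = 0.680): 135 and 95.7 CPM against 44.4 and 35.3. HIF1A was lower in the ER lines by a log2 fold change of -1.18 ± 0.44 (adjusted p = 0.698): 310.1 and 470.4 CPM against 636 and 1170.0. For both genes each ER line lay on the same side of the GR line of its own parent. DESeq2 called VEGFA (adjusted p = 0.00975; all genes 2.5%) and limma-voom 0 members. With HCC827GR left out, PC-9GR is the only GR library. That setting therefore cannot separate a difference between GR and ER lines from what is particular to PC-9GR. The 6 members named next had log2 ratios of PC-9GR to PC-9 of -2.02, -5.61, 4.61, -1.98, 3.15 and 9.16, in that order. Without HCC827GR 6 other members passed in edgeR (HK1, HK2, ENO2, PDK1, PFKFB3 and CA12; all genes 10.6%), and the difference of tables cannot be told apart from this comparison.

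Levels were also compared between the families. With the 3 HCC827 lines set against the 3 PC-9 lines, 9 members had an unadjusted p under 0.05, where 18.2% of all tested genes did, a share near that of the members, and none passed after adjustment, where 0.245% did. ENO2 (3.62 ± 0.95, adjusted p = 0.173), PFKM (1.16 ± 0.33, 0.190), BNIP3 (1.17 ± 0.35, 0.200) and TPI1 (1.07 ± 0.42, 0.272) were higher in HCC827 lines. EGLN3 (-2.81 ± 0.65, 0.144), EPAS1 (-2.40 ± 0.68, 0.190) and PDK3 (-1.02 ± 0.32, 0.212) were lower. SLC2A3 (adjusted p = 0.0820) and CA9 (adjusted p = 0.0700) were also lower, with HCC827 libraries at the floor, so no fold is given. DESeq2 called 8 of these 9, all but PDK3 (all genes 13.9%), and limma-voom 0. In edgeR 7 members passed without PC-9GR (17.8%) and the same 7 without HCC827GR (18.0%), both at about the background share. They were SLC2A3, HK2, PFKM, ENO2, CA9, EGLN3 and EPAS1. With either GR line left out, the other is fitted by its own term. Both settings therefore compare the same parental and ER libraries and are not separate checks. HK2 was fitted at -0.09 with all lines, where the GR lines went the other way (21.7 CPM in HCC827GR against 1.90 in PC-9GR).

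**Figure D5:**
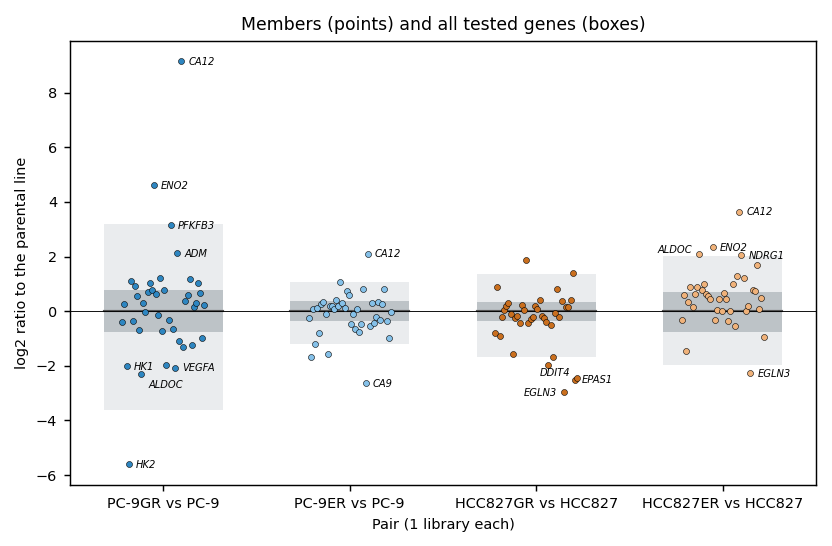
Log2 ratio to the parent (vertical axis) in each resistant line: points are the members above the count floor, the dark box spans the 25th to 75th and the pale box the 5th to 95th percentile of all 13476 tested genes, and its line is their median. Most members lie within the pale box. Above it lie CA12 and ENO2 in PC-9GR, CA12 in PC-9ER, ENO2 and HIF1A in HCC827GR, and CA12, ENO2, ALDOC and NDRG1 in HCC827ER. Below it lie HK2 in PC-9GR, SLC2A3, ALDOC and CA9 in PC-9ER, VEGFA, EGLN3, EPAS1 and DDIT4 in HCC827GR, and EGLN3 in HCC827ER. HK2 in PC-9ER and CA12 in HCC827GR lie at its lower edge.

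Other genes of these pathways, from a list of 70 of which 64 were listed and 58 tested, were counted the same way. None passed the adjusted test in any of the 6 comparisons. In all 4 pairs 10 were higher and 6 lower, against 11.2% and 11.1% of all tested genes. HMOX1, haem oxygenase, which NRF2 also regulates, exceeded the parent by at least 2-fold in each pair, at 30.3, 278, 62.4, 20.8, 160.1 and 112 CPM.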

How the data were processed

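RNA of 6 libraries was made with a stranded TruSeq Ribo-Zero kit, per the labels. The authors deposited expected counts per gene in 2 side-by-side tables of 16854 and 16306 genes. The submitters' processing notes name HISAT2 2.0.4, Cuffdiff and GRCh38.p13; no source used here names the program behind the counts. Between 13.4% and 14.6% of values per library were not whole, among them those of GPI, ALDOA, PGAM1 and PFKFB4 in every library, and were rounded. The 16000 genes in both tables were kept. Fits used edgeR 4.0.16 in R 4.3.3: TMM scaling, its default expression filter (13476 genes), robust quasi-likelihood tests and Benjamini-Hochberg adjustment at 0.05, in 6 comparisons. Scripts were tested on simulated data. Alternatives were RLE and total-count scaling, ribosomal protein genes left out, other filters, DESeq2 1.42.0, limma-voom (limma 3.58.1) and each library left out. Intervals are 95% exact and cover counting error only; reads carried no molecular identifiers. Coordinates of genes are from GENCODE 29. Promoters come from RefSeq (GRCh38.p14). Members with one direction in all 4 pairs or at least 2-fold apart in 2 pairs, and their isozyme partners, are given in full. The members and lists were chosen with earlier results of these data known.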

Additional observations from a re-analysis of the deposited data

How the results depend on the processing

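No pairing by replicate number was possible because each line has 1 library. The pairing of each resistant line with its parent was kept, with the parent as a block in the fits. Members called: for the PC-9 lines 0 to 4 with 1 library left out, for the difference between parents 0 to 1, for ER against GR 0 to 6 (DESeq2 1, VEGFA, adjusted p = 0.00975) and for origin 0 to 7 (DESeq2 8). Over all genes, DESeq2 called 31 for resistant against parental, 90 for PC-9, 42 for HCC827, 25 for the difference, 337 for ER against GR and 1877 for origin, where edgeR called 0, 0, 0, 0, 0 and 33. Origin also gave 95 with total counts, 110 with no filter and 96 with limma-voom. With 1 library left out the calls reached from 0 to 994 (PC-9, without PC-9ER), 160 (HCC827, without PC-9ER), 504 (difference, without PC-9ER), 1419 (ER against GR, without HCC827GR) and 2409 (origin, without HCC827GR). Leaving out 1 line of a pair of derived lines assumes that the lone line varies like the others. Without PC-9ER the PC-9 contrast sets PC-9GR against PC-9, with 1 library each. Without HCC827GR the ER against GR contrast has PC-9GR as its only GR library. Without either GR line the origin contrast rests on the same parental and ER libraries. Members higher in every pair were 8 to 15 and lower in every pair 4 to 9 with 1 line left out. Members at least 2-fold higher in HCC827ER were 5 with total counts. The summed enzymes gave log2 ratios of 0.177 (PC-9GR), -0.124 (HCC827GR) and 0.354 (HCC827ER) with total counts, 0.708 (HCC827ER) without ribosomal protein genes, and 0.389, 0.129, -0.16 and 0.439 without GAPDH. Single-gene fits were followed for members with one direction in all 4 pairs, EGLN3, and those at an unadjusted p under 0.05 for ER against GR or origin. None of these reversed direction. Other members were not followed, and some differed between families. ALDOC was fitted at -0.64 for all resistant lines, -1.90 for the PC-9 lines and 1.19 for the HCC827 lines. Without PC-9 or HCC827, contrasts that need that parent were not fitted. Depth limits CA9 and SLC2A3 in HCC827 lines and ANKRD37 in all. Leaving out a line from the counts over pairs, the sum without GAPDH and the all-gene shares under other scalings were chosen after seeing the data; the cause of these differences was not tested.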

Other observations

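These pathway genes outside the 40 were named after their values were seen. Among all tested genes, 11.2% were higher and 11.1% lower in all 4 pairs. MPC2, a subunit of the mitochondrial pyruvate carrier, was at 42.6, 78.8, 63.9, 49.2, 101 and 189 CPM (PC-9 with its GR and ER lines, then HCC827 with its GR and ER lines), above the parent in every pair. MPC1, the other subunit, was at 13.9, 4.08, 13.4, 6.85, 5.62 and 9.62 CPM, above the parent in HCC827ER only. PDK4, a further pyruvate dehydrogenase kinase, was at 3.43, 31.8, 7.06, 4.41, 6.43 and 5.06 CPM, higher in each resistant line with TMM scaling. In HCC827ER its log2 ratio was only 0.192, and total-count scaling, which moved the median gene of that pair by -0.342, puts it below the parent. ERO1A, an oxidase of the endoplasmic reticulum and a HIF target, was at 278, 108, 237, 153, 83.5 and 91.5 CPM, below the parent in every pair. VHL, which ubiquitinates hydroxylated HIF, was at 116, 51.0, 80.4, 24.6, 23.5 and 20.5 CPM and TGFA, an EGFR ligand, at 73.6, 9.67, 20.9, 48.7, 12.5 and 39.4 CPM, both below the parent in every pair. The log2 ratio of VHL in HCC827GR was only -0.064. None of these genes passed the adjusted test in any comparison (edgeR).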
